A study of Felis catus with 3 samples.

Results

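Endoglin (ENG, CD105), an accessory receptor for TGFβ family ligands that is carried by stromal cells in culture, was set against 6 genes of leukocytes, MHC class II antigen presentation and endothelium in noninduced feline adipose-derived mesenchymal stem cells (ASCs). The 6 genes were CD74, CD14, ITGB2, CORO1A, CD2 and TEK. Endoglin also works in endothelium, so the level of ENG alone does not tell stromal from endothelial cells. The 7 genes were chosen by symbol, with earlier results of these data known. Each symbol was matched to an Ensembl identifier through the study's gene table, and all 7 were among the 21529 genes of the deposited files. RNA sequencing was performed on 3 primary cultures, each grown from the fat of another cat and sequenced as 1 library. They are numbered as in the gene table, in which they stand as Feline ASC 1, 2 and 3. All were untreated, grown in MEMα with 10% fetal bovine serum and harvested at passages 3 to 4 according to the labels. The study's description of its gene table gives passage 3. The design thus holds a single condition and no control group. The study took fat from specific pathogen-free cats and from client-owned cats, and 1 sample title (SPF2, culture 3) carries the abbreviation of the former. The cultures were uncloned, and the age and sex of the cats were not given in the sources used here.

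Mesenchymal stromal cells are defined in part by surface proteins that they carry, among them CD105, CD90, CD73 and CD44, and in part by those that they lack, among them leukocyte, monocyte and MHC class II molecules. Adipose tissue also holds macrophages, lymphocytes, blood vessel endothelium and mural cells, so the same markers are used to ask what else a culture contains. The study stained feline ASC lines by flow cytometry with antibodies to CD44, CD90, CD105, CD18 and MHC II. Of these antigens, CD105 is the product of ENG and CD18 is the product of ITGB2. CD74 encodes the invariant chain that escorts MHC II molecules and is not the antigen that was stained.

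Levels are given in FPKM, the number of sequenced fragments of a gene scaled to 1000000 mapped reads and to a kilobase of its transcript. This unit corrects for length, so genes can be compared within a library. It is not a count, and the number of fragments behind a value is not known. The summed FPKM of the 3 libraries lay between 621797 and 688297, and between 33.3% and 34.3% of genes were listed at 0. Some of the values under 0.15 FPKM rise in steps of a fragment, and a step in culture 1 was 0.911 times that in culture 2. Against culture 3 the steps were 1.28 times as large in culture 1 and 1.41 times in culture 2. Of the low genes compared, 22.2% lay on the step of cultures 1 and 2. For cultures 1 and 3 the share was 12.4%, and for cultures 2 and 3 it was 10.7%. By the size of the steps, culture 3 was the deepest library. A listed 0 was read with caution, because RPL26L1 was at 0 in all cultures among 44 ribosomal, proteasome, respiratory chain and other housekeeping genes with a symbol, whereas 41 of the 44 reached 1 FPKM in every culture.

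ENG was the only gene of the 7 that reached 15 FPKM, the lower limit of moderate expression in the study. The ENG locus (ENSFCAG00000001489) lies on chromosome D4 from 88341583 to 88371990 of Felis Catus 8.0. Its level was 72.5 FPKM in culture 1, 117 FPKM in culture 2 and 73.9 FPKM in culture 3. ENG was above 15 FPKM in all 3 cultures and reached 100 FPKM, the lower limit of high expression in the study, in culture 2 alone. The mean was 87.8 ± 25.3 FPKM (SD, n = 3 cultures). Between 94.1% and 96.3% of all genes of the same library were lower than ENG. Over all 21529 genes, 22.1% reached 15 FPKM in every culture, so passing that limit did not set ENG apart from many other genes. In bulk RNA, fewer cells that carry a transcript and less of it in each cell cannot be told apart.

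**Figure D1:**
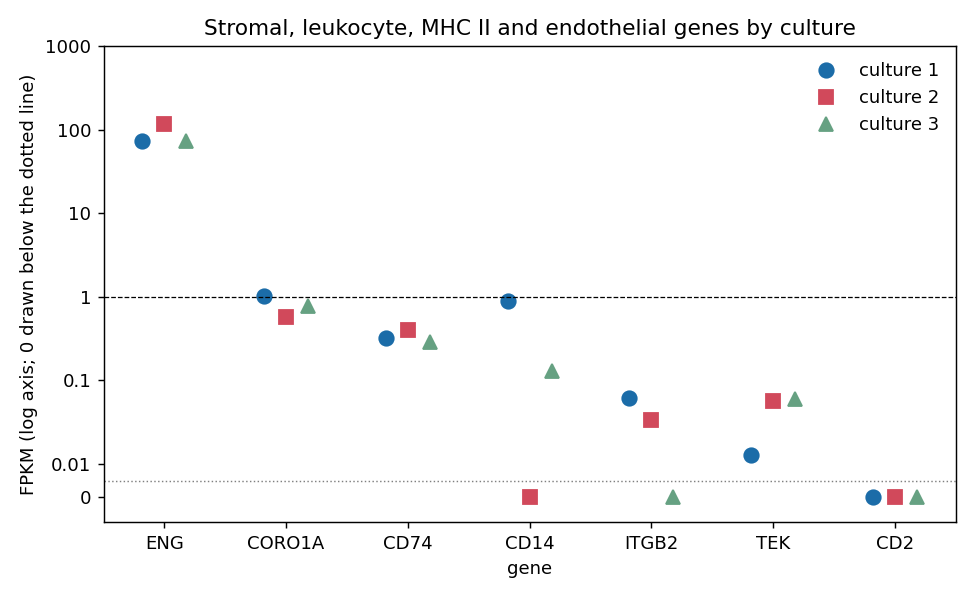
FPKM of the 7 genes (log axis) in cultures 1, 2 and 3, with 1 point per culture and the dashed line at 1 FPKM. Points below the dotted line are genes listed at 0. ENG sits between 72.5 and 117 FPKM, and CORO1A in culture 1 (1.03 FPKM) is the only other point above the dashed line.

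Of the other 6 genes, 5 were under 1 FPKM in every culture. The remaining gene, CORO1A, exceeded that level in 1 culture. Under 1 FPKM in every culture were 46.1% of all genes and 34.3% of the 1807 genes with a symbol. A low value is therefore common among all genes, and the count for these 6 is given as a description.

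Leukocyte genes formed the first group. CORO1A (ENSFCAG00000001301, chromosome E3, 20667181 to 20670878) encodes coronin 1A, an actin-binding protein abundant in hematopoietic cells. Its level was 1.03 FPKM in culture 1, 0.564 FPKM in culture 2 and 0.780 FPKM in culture 3. It was the highest of the 6 in every culture, with a mean of 0.790 ± 0.230 FPKM (SD, n = 3 cultures). ITGB2 (ENSFCAG00000002284, chromosome C2, 1750097 to 1766480) encodes CD18, the common beta chain of the leukocyte integrins. ITGB2 had 0.0612 FPKM in culture 1 and 0.0335 FPKM in culture 2, and it was listed at 0 in culture 3. The values of cultures 1 and 2, corrected for the worth of a fragment, stood within 0.215% of 2 to 1. They thus lay on the fragment steps, where values can rest on very few fragments.

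CD14 and CD2 mark narrower groups of leukocytes. CD14 (ENSFCAG00000001278, chromosome A1, 117311205 to 117312333) encodes the lipopolysaccharide co-receptor of monocytes and macrophages. It was the least even of the 7 genes, with 0.878 FPKM in culture 1, a listed 0 in culture 2 and 0.129 FPKM in culture 3. In culture 1 it was close to CORO1A, whereas in the other cultures it was below CORO1A and CD74. CD2 (ENSFCAG00000001976, chromosome C1, 97487095 to 97499400) encodes an adhesion receptor of T cells and natural killer cells. CD2 was listed at 0 in all 3 cultures, as were 29.0% of all genes.

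CD74 (ENSFCAG00000002036, chromosome A1, 196399726 to 196408404) was the member of the MHC II group. Antigen-presenting cells carry large amounts of its transcript, and interferon γ induces it in stromal cells. Its level was 0.323 FPKM in culture 1, 0.397 FPKM in culture 2 and 0.285 FPKM in culture 3. The cultures lay close together, with a mean of 0.335 ± 0.0568 FPKM (SD, n = 3 cultures). Its coefficient of variation across cultures (16.9%) was below those of ENG (28.8%), CORO1A (29.2%) and TEK (60.7%), the others above 0 in every culture.

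TEK (ENSFCAG00000002830, chromosome D4, 52636433 to 52742274) was the endothelial gene and encodes TIE2, the receptor for angiopoietins. It had 0.0129 FPKM in culture 1, 0.0564 FPKM in culture 2 and 0.0595 FPKM in culture 3. The mean was 0.0429 ± 0.0261 FPKM (SD, n = 3 cultures), with culture 1 well below the others. Corrected for the worth of a fragment, the 3 values lay within 1.34% of the whole-number proportions 1 to 4 to 6. Only whole numbers up to 6 were tried. The 4.62-fold difference between the highest and lowest culture thus lay at the level where single fragments show as steps.

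The order of the levels was only partly resolved. ENG was first and CORO1A second in every culture, and the lowest ENG value was 70.8 times the highest CORO1A value, both in culture 1. CD74 was above TEK, ITGB2 and CD2 in every culture. CD14 and CD74 changed places between cultures, and so did TEK and ITGB2, so these neighbours did not differ beyond the spread of the cultures.

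Within each culture ENG exceeded each of the 6 genes. ENG was 70.8, 207 and 94.7 times CORO1A in cultures 1, 2 and 3. Against CD74 the ratios were 224, 295 and 259 in the same order. The sum of the 6 genes was 2.30 FPKM in culture 1, 1.05 FPKM in culture 2 and 1.25 FPKM in culture 3, so that ENG was 31.5, 111 and 58.9 times the sum. The smallest of these margins was in culture 1, in which CORO1A and CD14 were both at their highest. On the log2(FPKM + 1) scale the mean difference between ENG and another gene ranged from 5.60 ± 0.56 for CORO1A to 6.44 ± 0.39 for CD2 (SD, n = 3 cultures). The added 1 limits these differences for genes near 0. An exact two-sided permutation test that flips the sign of the difference in each culture gave p = 0.25 for each of the 6 comparisons (n = 3, ENG higher in 3 of 3). This is the smallest p that 3 cultures allow, and the design cannot reach 0.05. The genes were chosen with earlier results of these data known, and all 6 comparisons share the same ENG values. They are therefore given as a description and not as separate support.

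ENG also differed between the cultures. Its level in culture 2 was 1.61 times that in culture 1 and 1.58 times that in culture 3, whereas cultures 1 and 3 differed little, with a ratio of 0.982. Of the 4755 genes that reached 15 FPKM in every culture, 3.76% were at least as far above the higher of the other cultures in culture 2. None of the leukocyte or endothelial members showed the same order of all 3 cultures, with the top place of CORO1A, CD14 and ITGB2 in culture 1 and that of TEK in culture 3. CD74 was highest in culture 2, at 1.23 and 1.39 times the levels of cultures 1 and 3. With a single library per culture, the variation of repeat libraries is unknown and no test of these differences was possible.

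Genes of vascular mural and smooth muscle cells differed between the same cultures by more than ENG. MCAM (CD146), an adhesion molecule of pericytes and of some stromal cells, had 14.4 FPKM in culture 1, 79.9 FPKM in culture 2 and 16.0 FPKM in culture 3. LMOD1, an actin filament nucleator of smooth muscle, had 27.4, 109 and 22.0 FPKM, and SMTN (smoothelin) had 44.7, 112 and 56.3 FPKM. NOTCH3, a receptor of mural cells, had 21.7, 41.5 and 10.2 FPKM. Culture 2 was the highest for these 4 of the 6 genes of the list that had a symbol. Among the 10681 genes at 1 FPKM or more in every culture, 41.5% were highest in culture 2 and 36.5% were lowest there, and culture 2 also had the largest summed FPKM (688297 against 621797 and 636464 in cultures 1 and 3). The exceptions were KCNMB1, which was lowest in culture 2 at 1.10 FPKM, and RGS5, at 0.293 FPKM or less. The summed level of the list was 344 FPKM in culture 2 against 113 and 112 FPKM in cultures 1 and 3. The part of these genes' cells in the ENG difference was not tested. Of the 4 matrix genes with a symbol, 1 was highest and 3 were lowest in culture 2. The former was COL5A1, a fibrillar collagen chain, with 480 FPKM against 178 and 261 FPKM in cultures 1 and 3. THBS2 (thrombospondin 2) had 84.2 FPKM in culture 2 against 173 and 136 FPKM. PCOLCE2, an enhancer of procollagen processing, had 10.4 FPKM against 19.9 and 15.2 FPKM. COL14A1, a collagen associated with fibrils, differed most, with 0.586 FPKM against 5.18 and 1.58 FPKM.

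**Figure D2:**
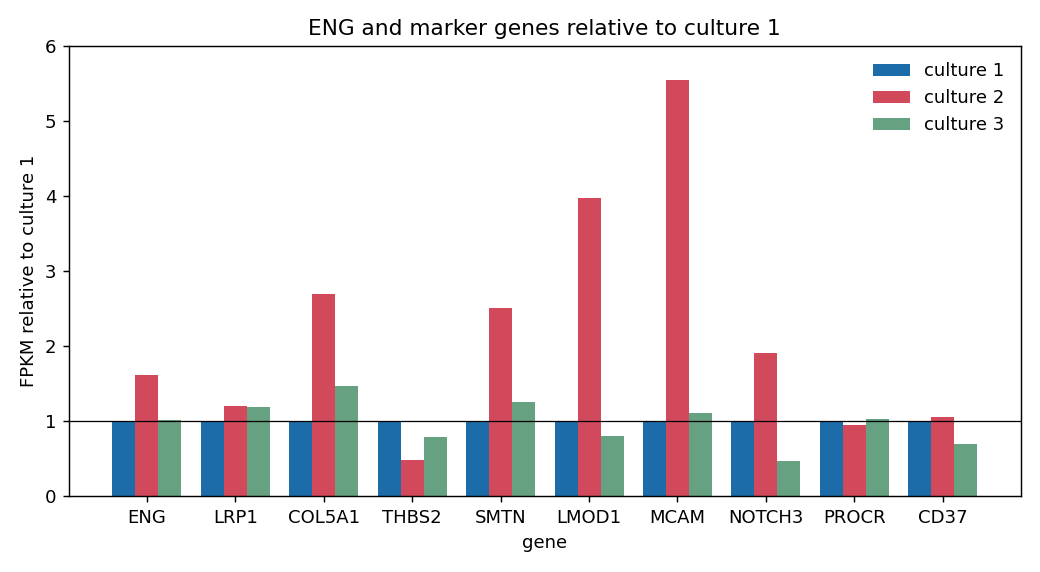
FPKM of ENG and of 9 marker genes in each culture, divided by the value in culture 1, with 1 bar per culture and no error bars because each culture had 1 library. The culture 2 bar of ENG stands at 1.61, below those of MCAM (5.54), LMOD1 (3.98), COL5A1 (2.69) and SMTN (2.51), while that of THBS2 stands at 0.487.

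Longer lists of marker genes were examined to place the 7 genes. Symbols were available for only 8.39% of the genes of the files, so many defining markers had no symbol and were not analysed here, among them THY1 (CD90), CD44, NT5E (CD73), PTPRC (CD45), PECAM1 and the MHC II chains. The lists are described by counts and were not tested. Of 113 leukocyte, monocyte, lymphocyte and MHC II genes listed, 46 had a symbol. Of these 46 genes, 42 (91.3%) were under 1 FPKM in every culture and 19 (41.3%) were at 0 in every culture. Among all 1807 genes with a symbol, 34.3% were under 1 FPKM and 14.2% were at 0 in every culture. The median of the 46 was 0.0186 FPKM, compared with 1.57 FPKM over all genes. The 46 summed to 16.0, 15.5 and 12.9 FPKM in cultures 1, 2 and 3. Without CD37, described below, the sums were 8.74, 7.83 and 7.83 FPKM.

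Only 2 of the 46 reached 1 FPKM in every culture, against 49.6% of all genes and 61.3% of genes with a symbol. CD37, a tetraspanin of B cells and other leukocytes, had 7.29 FPKM in culture 1, 7.70 FPKM in culture 2 and 5.03 FPKM in culture 3. The gene table gave CD37 the same locus as TEAD2, a transcription factor gene with 24.0, 28.1 and 19.8 FPKM, whose order of cultures was the same. How reads were divided between the pair was not tested. NLRC5, a regulator of MHC class I genes that was listed beside the MHC II genes, had 3.27, 3.21 and 3.03 FPKM. FGD2, a guanine nucleotide exchange factor of antigen-presenting cells, passed 1 FPKM in culture 3 alone, with 0.793, 0.587 and 1.21 FPKM.

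The 13 genes shared by many leukocytes were led by CD37, CORO1A and NCF1, a subunit of the phagocyte oxidase with 0.661, 0.942 and 0.334 FPKM. SPI1, which encodes the myeloid factor PU.1, was above 0 in culture 2 alone, at 0.139 FPKM. Of the 15 monocyte and macrophage genes, 8 were at 0 in every culture, against 14.2% of genes with a symbol. TREM1, TREM2, CX3CR1 and S100A8 were among the 8. The highest after FGD2 and CD14 was C1QB, a complement component made by macrophages, at 0.123 FPKM in culture 1, 0.265 FPKM in culture 2 and a listed 0 in culture 3. C1QB was therefore highest in the culture in which CD14 was listed at 0. The 15 lymphocyte genes were lower still, with 10 at 0 in every culture and a summed level between 0.0922 and 0.187 FPKM. The highest was CCR4, a chemokine receptor, at 0.116 FPKM in culture 2, followed by RASGRP1 and CD101.

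**Figure D3:**
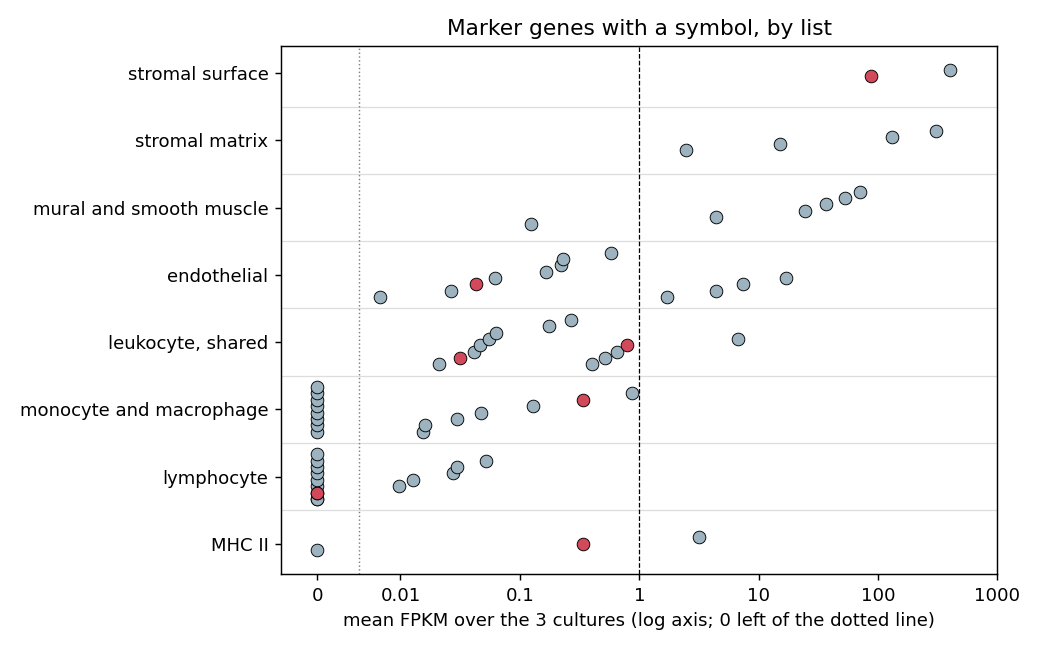
Mean FPKM over the 3 cultures (log axis) of every gene with a symbol in 8 marker lists, with 1 point per gene, the 7 chosen genes in red and genes listed at 0 left of the dotted line. The stromal surface genes ENG and LRP1 lie at 87.8 and 400.1 FPKM, while CD37 and NLRC5 are the only leukocyte, monocyte, lymphocyte or MHC II points to the right of the dashed line at 1 FPKM.

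The endothelial list was less uniform than the leukocyte lists. Of its 12 genes with a symbol, 8 were under 1 FPKM in every culture and 4 reached 1 FPKM in every culture, against 34.3% and 61.3% of all genes with a symbol. PROCR, the protein C receptor, was the only gene of the list to reach 15 FPKM in every culture, as 30.3% of genes with a symbol did, with 17.2, 16.2 and 17.8 FPKM in cultures 1, 2 and 3. TMEM100, a membrane protein regulated by bone morphogenetic protein signaling, had 6.60, 5.68 and 10.0 FPKM. FLT4, the VEGF receptor of lymphatic endothelium, had 1.47, 1.66 and 2.02 FPKM. LYVE1, another lymphatic marker, was at 0.588 FPKM in culture 2, 0.0968 FPKM in culture 1 and 0 in culture 3. TEK was at 0.0595 FPKM or less, so single endothelial genes gave different pictures of the same libraries.

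The last of the 4 endothelial genes above 1 FPKM, ACVRL1 (ENSFCAG00000000265), encodes ALK1, a signaling receptor that works with endoglin in endothelium, and it was the only other gene of the 27 listed for the endoglin pathway with a symbol. Its level was 5.12 FPKM in culture 1, 2.48 FPKM in culture 2 and 5.55 FPKM in culture 3. ACVRL1 was thus lowest in the culture in which ENG was highest, at 0.484 and 0.447 times its levels in cultures 1 and 3.

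Among stromal surface genes, LRP1 (CD91), an endocytic receptor, was the only other gene with a symbol, and it exceeded ENG in every culture with 353, 426 and 421 FPKM. By the summed absolute difference in log2(FPKM + 1) over the 3 cultures, the genes with a symbol nearest to ENG included HYOU1 (0.395), PUF60 (0.566), ATP2B4 (0.587) and P3H4 (0.590). HYOU1, a chaperone of the endoplasmic reticulum, had 71.4, 109 and 89.2 FPKM. The likeness rests on 3 cultures, and because the genes were chosen by it, their order of cultures is no separate result.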

How the data were processed

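Stranded mRNA libraries of 3 cultures were made from 200 ng of total RNA with 15 cycles of PCR. The authors used HISAT for alignment to the cat assembly Felis Catus 8.0 and Cufflinks for quantification. The deposited files hold 1 FPKM value per gene after normalization across libraries with Cuffnorm. Program versions, the annotation release and the normalization method were not given in the sources used here. FPKM depends on the length of the gene model, so an incomplete model shifts a gene's level. Each library took the line number of the gene table column whose values it equalled at all 1997 genes listed.

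No gene was removed from the files. Shares stated among genes at 1 or 15 FPKM or more in every culture were computed on those genes alone. Python 3.11.15 was used with numpy 2.4.6, scipy 1.17.1, pandas 2.3.3 and, for the plots, matplotlib 3.10.9. Differences were taken on log2(FPKM + 1). Relative fragment worth was read from genes under 0.15 FPKM, after the computation was tested on simulated data. The study gives only an approximate number of reads per sample. The depth of each library is otherwise unknown, so no counting intervals are given. Where a gene was listed at 0 in a culture, no mean ± SD of its FPKM is given. List medians, the plot of lists and log2 differences average over such zeros.

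The 7 genes and the marker lists were chosen with earlier results of these data known. Genes were named by rule: the 7 genes, up to 3 of the highest in each list, list genes at 15 FPKM or more, and the 5 nearest to ENG. Some genes that the rule names are not reported here. Other names (SPI1, LYVE1, FLT4, KCNMB1, RGS5, COL14A1, TREM1, TREM2, CX3CR1, S100A8, NOTCH3 and those of genes sharing a locus or listed at 0) were chosen after values were seen. The alternatives were quantile normalization, rescaling each library to 1000000 (TPM), other pseudocounts and levels, and leaving out each culture.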

Additional observations from a re-analysis of the deposited data

How the results depend on the processing

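ENG exceeded each of the 6 genes under every alternative tried. That outcome was fixed in advance, because ENG was higher in every culture and each alternative keeps the order of genes within a library. The values counted below as keeping a direction are these differences, so they add no separate support. The mean log2 difference ranged from 5.29 to 6.55 when 1 culture was left out, from 5.91 to 7.06 after rescaling to TPM and from 6.62 to 9.74 with a pseudocount of 0.1. The mean level of ENG rose to 134 after rescaling to TPM, in which all genes rise because the FPKM values sum to less than 1000000. ENG in culture 2 over the mean of the others (1.60) fell to 1.46 after rescaling to TPM and to 1.54 after quantile normalization. The number of the 7 genes under 1 FPKM in every culture (5) ranged from 4 to 6. The endothelial genes at 15 FPKM or more in every culture (1) became 0 at a level 1.5 times higher. The mural genes at that level (2) became 1 at the higher level, 4 at a level 1.5 times lower and 4 after rescaling to TPM. No paired analysis was possible because the samples form a single group. Over all results, 89 recomputed values kept the direction of a difference, stayed within 1 SD between cultures, within 1.5 times for counts or, for the percentage of genes with a ratio as large as that of ENG, under 2 times the value, and 10 did not. Without counts, the lowest values (TEK, ITGB2) could not be given an error.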

Other observations

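Lists of adipocyte, epithelial and erythroid genes were also examined. Of their genes with a symbol, all but 1 adipocyte and 1 epithelial gene were under 1 FPKM in every culture. Only 3 of 15 adipocyte and 2 of 10 erythroid genes had a symbol, against 12 of 16 epithelial genes. The adipocyte and erythroid lists are therefore too sparse to describe those cell types. PLIN2, a lipid droplet coat protein found in many cells, had 139, 129 and 125 FPKM in cultures 1, 2 and 3. The adipocyte list's other genes with a symbol, RETN and PCK1, were listed at 0 in every culture, as were 14.2% of genes with a symbol. Of 12 epithelial genes, 11 were under 1 FPKM in every culture, against 34.3% of genes with a symbol. At 0 throughout were 6, KRT5, KRT19 and TP63 among them, against 14.2% of genes with a symbol. The exception was CDH3 (P-cadherin), with 1.83 FPKM in culture 1, 8.11 FPKM in culture 2 and 2.49 FPKM in culture 3, and it was thus highest in the culture with the most ENG and MCAM. CLDN1, a tight junction protein, had 0.501 FPKM or less. The erythroid genes ALAS2 and RHAG were at 0.0298 FPKM or less, where 34.3% of genes with a symbol were under 1 FPKM in every culture.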
